A study of Saccharomyces cerevisiae with 14 samples.

Results

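The genes described here encode the nuclear pore complex of Saccharomyces cerevisiae and the karyopherins, the receptors that carry cargo through it. A list of 43 gene names was matched to the gene symbols that the platform annotation gives its probe sets, with 1 probe set per gene, and all 43 were found among the 5449 S. cerevisiae genes on the array. NUP59 was matched through its other name, ASM4, and the remaining 42 by symbol. By their known place in the pore they were split into 17 scaffold nucleoporins, 10 FG nucleoporins, 5 other pore proteins and 11 transport receptors. Membership was set by gene name and not by a measured cutoff, but the list was drawn up with results of these arrays known.

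The pore complex is a channel through the nuclear envelope. Its scaffold is built of stacked rings, with a membrane ring anchored in the envelope, an inner ring around the channel and outer rings on its nuclear and cytoplasmic faces. FG nucleoporins carry disordered stretches rich in phenylalanine and glycine that fill the channel and bind passing receptors. Karyopherins bind cargo on one side and release it on the other, and the small GTPase Ran sets the direction, since Ran-GTP frees import cargo in the nucleus and is needed to form export complexes there.

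RNA was measured on 14 Affymetrix Yeast Genome 2.0 arrays. The industrial wine yeast M2, a MATa/α diploid, was compared with M2 nsf1∆, in which kanMX4 replaces both copies of NSF1 (a zinc-finger gene also named USV1), while they fermented Riesling grape must in flasks with air locks. Each strain had 2 arrays at 24 h, 2 at 20% and 3 at 85% of sugars fermented. Every array is labelled a biological replicate, the methods speak of duplicate fermentations, and how the arrays of a group relate was not given in the sources used here, so p-values measure only the spread between these arrays. The values are RMA log2 intensities, so a difference of 1 is a 2-fold change.

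NSF1 read between 8.92 and 13.19 on the M2 arrays and between 2.95 and 5.90 on the nsf1∆ arrays. The 5.90 came from nsf1∆ replicate 3 at 85%, and the other nsf1∆ arrays lay at 4.28 or below. Probe sets for S. pombe genes serve as a measure of background, and 95% of their values lay at or under 3.62. All 43 genes were above that level on every array, with values from 4.96 to 12.03. Array medians lay between 8.87 and 8.95, and between replicate arrays r over all S. cerevisiae probe sets was 0.985 to 0.996.

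Between 24 h and 85%, 29 of the 43 genes fell in M2 and 5 rose. Across all 5498 S. cerevisiae probe sets tested with limma, 35.2% fell and 38% rose in the same comparison (Benjamini-Hochberg adjusted p, threshold 0.05). In nsf1∆, 28 of the 43 fell and 4 rose, against 36% and 37% of all probe sets. The median log2 change of the 43 genes was -0.75 in M2 and -0.71 in nsf1∆, where the median over all probe sets was 0.05 and 0.02. In both strains 27 genes fell and 4 rose, with none passing in opposite directions. The arrays of M2 and nsf1∆ are separate, but the calls of both strains came from the same fit, with a shared estimate of spread. The share of all probe sets that passed the same way in both strains was not counted. The 27 and 4 genes therefore have no background to be compared with. The study had named 6 of the genes (NUP192, NUP188, NUP42, NUP133, NUP82 and KAP104) on the strength of these arrays, and their direction is therefore no independent evidence. Of the other 37 genes, 24 fell and 4 rose in M2, and 23 fell and 3 rose in nsf1∆.

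**Figure D1:**
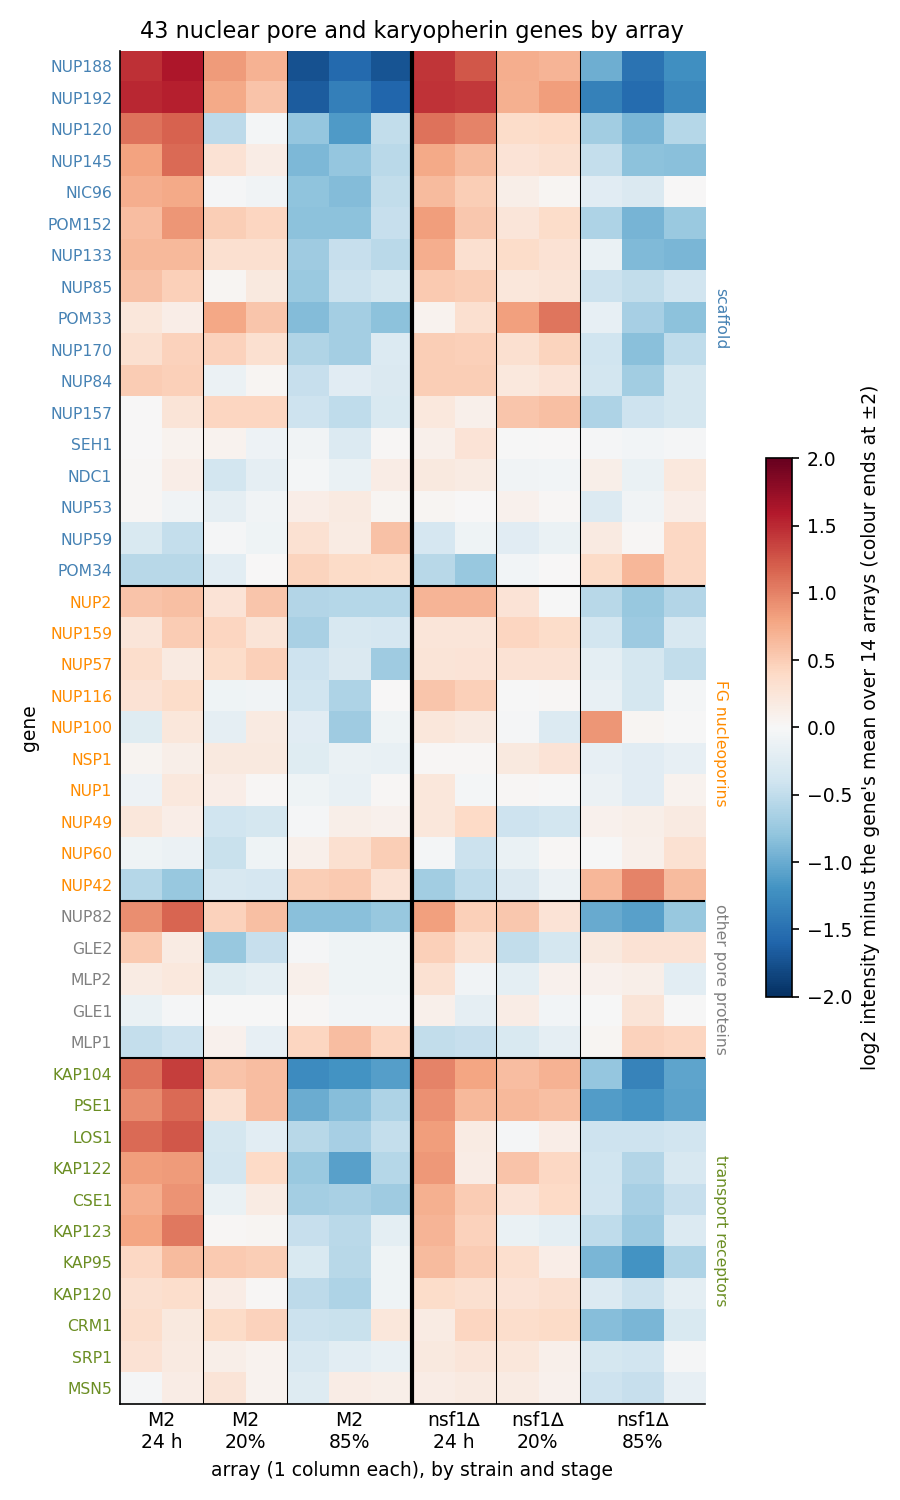
Each row is 1 of the 43 genes and each column 1 of the 14 arrays, and colour gives the log2 intensity minus that gene's mean over the arrays. Most scaffold and transport receptor rows pass from red at 24 h to blue at 85% in both strains, whereas POM34, NUP42 and MLP1 run the other way and SEH1, NUP1 and GLE1 stay pale.

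The RNA came from whole cultures, so fewer cells of one kind and less RNA per cell cannot be told apart. Markers of other cell states moved with the stage. Of 12 sporulation genes, 10 rose in M2 between 24 h and 85% and none fell, and their summed linear intensity was 638 to 813 at 24 h and 1912 to 2292 at 85%. Of 10 haploid-specific genes, 9 rose and none fell, with sums of 653 to 687 at 24 h and 1883 to 2135 at 85%. In nsf1∆ the sums went from 780 to 909 up to 2242 to 2549 for the sporulation genes, of which 11 rose and 1 fell, and from 741 to 866 up to 1803 to 2059 for the haploid-specific genes, of which 9 rose and 1 fell. Of all probe sets 38% rose in M2 and 37% in nsf1∆. The sums weigh bright genes most, such as RME1, at 6.90 and 6.64 in M2 at 24 h and 9.66, 9.43 and 9.64 at 85%. The rise of STE2 in M2 was lost under at least 1 omission of 1 array. So were, in nsf1∆, the rises of STE2, STE3 and STE4 and the falls of FAR1 and SPR3. SSP1, for sporulation, and STE18, of the haploid list, were at or under the background at 24 h in both strains. The part of these markers in the changes of pore genes was not tested.

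Most scaffold genes fell from 24 h to 85%. In each strain 12 of the 17 passed downward and 2 upward, and the median of their log2 changes was -0.97 in M2 and -0.94 in nsf1∆. Of all probe sets 35.2% fell and 38% rose in M2, and 36% fell and 37% rose in nsf1∆. The steepest falls among all 43 genes were those of NUP188 and NUP192, which encode the 2 very large proteins of the inner ring. NUP188 read 8.90 and 9.05 in M2 at 24 h, then 8.28 and 8.13 at 20%, and 5.69, 5.88 and 5.71 at 85%. In nsf1∆ it read 8.87 and 8.67, then 8.16 and 8.12, then 6.45, 5.96 and 6.20. The stages did not overlap in either strain, and at 85% every nsf1∆ array was above every M2 array. By the fit across all probe sets NUP188 fell by 3.21 in M2 (SE 0.14, adjusted p = 9.3e-10, limma), to 10.8% of its 24 h intensity, and by 2.56 in nsf1∆ (SE 0.14, adjusted p = 5.2e-09, limma), to 16.9%. Its M2 change lay at the 0.8 percentile of the changes of all probe sets.

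NUP192 followed nearly the same course. Its M2 values were 8.67 and 8.72 at 24 h, then 7.92 and 7.73 at 20%, and 5.49, 5.79 and 5.57 at 85%. Those of nsf1∆ were 8.61 and 8.57, then 7.88 and 7.99, then 5.81, 5.63 and 5.88. Again no 2 stages overlapped, while the strains overlapped at 85%. The fall was 3.08 in M2 (SE 0.12, adjusted p = 5.3e-10, limma) and 2.82 in nsf1∆ (SE 0.12, adjusted p = 1.2e-09, limma), to 11.8% and 14.2% of the level at 24 h.

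The remaining inner ring genes moved less. NIC96, whose product links the scaffold to the FG proteins of the channel, fell by 1.47 in M2 and by 0.73 in nsf1∆. NUP170 and NUP157, a pair of related genes, fell by 0.91 and 0.54 in M2 and by 1.06 and 0.62 in nsf1∆. The other related pair, NUP53 and NUP59, differed: NUP53 changed by 0.15 in M2 and -0.10 in nsf1∆ without passing (adjusted p = 0.309 and 0.508, limma), whereas NUP59 rose by 0.74 and 0.41. In nsf1∆ the rise of NUP59 (adjusted p = 0.0239, limma) was lost without nsf1∆ replicate 1 at 24 h (0.29, adjusted p = 0.184) or replicate 3 at 85% (0.31, adjusted p = 0.0919).

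In the outer ring, the Y-shaped subcomplex that coats the pore membrane, 5 of 6 genes fell in each strain. NUP120 fell by 1.94 in M2 and 1.77 in nsf1∆, and NUP145, whose precursor is cut into an outer ring protein and an FG nucleoporin, by 1.71 and 1.40. NUP85 fell by 1.04 and 0.94, and NUP84 by 0.82 and 0.96. NUP133, at the stem end of the subcomplex, read 7.64 on both M2 arrays at 24 h, then 7.32 on both at 20%, and 6.29, 6.53 and 6.46 at 85%. In nsf1∆ it read 7.72 and 7.32, then 7.36 and 7.29, then 6.87, 6.12 and 6.09. All arrays at 85% were below all earlier ones, with nsf1∆ replicate 1 the closest to them, and the fall was 1.21 in M2 and 1.16 in nsf1∆ (SE 0.20 for both, adjusted p = 1.0e-04 and 1.5e-04, limma). SEH1, which is also part of a complex on the vacuole, had changes of -0.14 and -0.21 that did not pass (adjusted p = 0.286 and 0.115, limma).

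The 4 membrane ring genes split. POM152 fell by 1.45 in each strain, and POM33, a membrane protein that helps to distribute pores, by 0.97 in M2 and 0.75 in nsf1∆. POM34, which encodes a partner of Pom152, had the largest rise of a scaffold gene, with M2 values of 8.23 on both arrays at 24 h, then 8.58 and 8.80 at 20%, and 9.23, 9.17 and 9.16 at 85%. In nsf1∆ POM34 read 8.24 and 8.03, then 8.74 and 8.80, then 9.17, 9.45 and 9.20. Each stage was above the one before on every array. The rise was 0.96 in M2 (SE 0.12, adjusted p = 8.3e-06, limma) and 1.14 in nsf1∆ (SE 0.12, adjusted p = 1.6e-06, limma). NDC1, a membrane anchor shared with the spindle pole body, changed by -0.09 and -0.10 and did not pass (adjusted p = 0.535 and 0.482, limma).

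FG nucleoporins moved both ways and less far. In M2, 5 of 10 fell and 2 rose with a median of -0.30, where 35.2% of all probe sets fell and 38% rose. In nsf1∆ 4 fell and 1 rose with a median of -0.20, where 36% of all probe sets fell and 37% rose. The share of falls in nsf1∆ was thus close to that of all probe sets. The M2 median was -0.43 without M2 replicate 1 at 24 h and -0.20 without M2 replicate 2 at 24 h. NUP2, a mobile protein of the nuclear basket that helps to release importin cargo, had the largest fall of the class. It read 10.05 and 10.07 in M2 at 24 h, then 9.75 and 10.03 at 20%, and 8.88, 8.90 and 8.91 at 85%. The nsf1∆ values were 10.15 on both arrays, then 9.75 and 9.46, then 8.92, 8.72 and 8.89. The 85% arrays were below all others and nearly equal among themselves in M2, and the fall was 1.16 in M2 and 1.31 in nsf1∆ (SE 0.12 for both, adjusted p = 1.7e-06 and 5.5e-07, limma).

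NUP42, which sits on the cytoplasmic side and works with Gle1 in mRNA export, had the largest rise of all 43 genes. Its M2 values were 7.13 and 6.94 at 24 h, then 7.38 and 7.37 at 20%, and 8.20, 8.23 and 8.00 at 85%. Its nsf1∆ values were 7.01 and 7.19, then 7.42 and 7.58, then 8.37, 8.70 and 8.33. No stages overlapped in either strain, and the 85% values of nsf1∆ were all above those of M2. The rise came to 1.11 in M2 (SE 0.14, adjusted p = 7.0e-06, limma), a 2.15-fold increase, and 1.36 in nsf1∆ (SE 0.14, adjusted p = 9.9e-07, limma), a 2.58-fold increase.

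Of the channel proteins that form one complex with Nsp1, NUP57 fell by 0.74 in M2 and 0.61 in nsf1∆, and NUP49 changed by -0.12 and -0.19 without passing (adjusted p = 0.313 and 0.123, limma). NSP1 itself fell by 0.26 in M2 (adjusted p = 0.0269, limma), a call lost without M2 replicate 1 or 2 at 24 h or replicate 1 at 85%, and changed by -0.22 in nsf1∆ (adjusted p = 0.0619, limma). NUP159, which holds the helicase Dbp5 at the cytoplasmic face, fell by 0.81 and 0.71. NUP116, an FG protein of the channel with a role in mRNA export, fell by 0.66 and 0.70, while its related gene NUP100 had changes of -0.34 and 0.10 with the largest SE of the class, 0.26. One array stood apart for NUP100, nsf1∆ replicate 1 at 85% with 8.16, where all other arrays lay between 6.57 and 7.50. NUP60, a basket protein, rose by 0.41 in M2 (adjusted p = 0.035, limma) and read 0.36 higher in nsf1∆ without passing (adjusted p = 0.0562, limma), and the M2 call was lost without any 1 of 4 M2 arrays. NUP1, also of the basket, did not pass in any stage comparison.

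The 5 other pore proteins had no common direction. NUP82, the anchor of the cytoplasmic filaments, read 7.68 and 7.91 in M2 at 24 h, then 7.22 and 7.35 at 20%, and 5.92, 5.92 and 6.00 at 85%. In nsf1∆ it read 7.58 and 7.23, then 7.29 and 7.03, then 5.75, 5.67 and 5.99. The 85% arrays formed a narrow group under every earlier array, and the fall was 1.85 in M2 and 1.60 in nsf1∆ (SE 0.14 for both, adjusted p = 8.2e-08 and 3.2e-07, limma). MLP1 and MLP2 encode related filaments of the nuclear basket. MLP1 read 7.46 and 7.53 in M2 at 24 h, then 8.03 and 7.77 at 20%, and 8.37, 8.56 and 8.36 at 85%, and in nsf1∆ 7.44 and 7.47, then 7.64 and 7.76, then 7.98, 8.40 and 8.36. Its stages did not overlap in either strain. MLP1 rose by 0.94 in M2 and 0.79 in nsf1∆, and MLP2 changed by -0.21 and -0.13 without passing (adjusted p = 0.214 and 0.446, limma). GLE1, the activator of Dbp5, passed in no comparison, with changes of 0.05 and 0.12. GLE2, an mRNA export factor bound to Nup116, fell by 0.40 in M2 and changed by -0.14 in nsf1∆ (adjusted p = 0.374, limma). Without M2 replicate 1 at 24 h the M2 change was -0.22 and did not pass (adjusted p = 0.231, limma).

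Transport receptors were the class in which no gene rose. From 24 h to 85%, 10 of 11 fell in M2 and 11 of 11 in nsf1∆, where 35.2% and 36% of all probe sets fell. The median log2 change of the receptors was -1.32 in M2 and -0.99 in nsf1∆. The nsf1∆ median was -1.22 without replicate 2 at 24 h. Differences between the classes were not tested.

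All 7 import receptors fell in both strains. KAP104, which imports mRNA-binding proteins such as Nab2, read 9.34 and 9.64 in M2 at 24 h, then 8.83 and 8.87 at 20%, and 7.00, 7.06 and 7.16 at 85%. In nsf1∆ it read 9.25 and 9.05, then 8.88 and 8.95, then 7.48, 6.92 and 7.20. The 85% arrays were far below both earlier stages, and the strains overlapped there. KAP104 fell by 2.42 in M2 (SE 0.16, adjusted p = 1.6e-08, limma) and by 1.95 in nsf1∆ (SE 0.16, adjusted p = 1.0e-07, limma), to 18.7% and 25.8% of its 24 h intensity. PSE1 (Kap121) and KAP123, which import ribosomal proteins among other cargo, fell by 1.87 and 1.32 in M2 and by 1.90 and 1.07 in nsf1∆. KAP120, an importer of a ribosome assembly factor, fell by 0.75 and 0.65.

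Importin α and importin β, which act as a dimer on classical nuclear localization signals, did not fall alike in size. SRP1, the α subunit, fell by 0.46 in M2 and 0.47 in nsf1∆, and KAP95, the β subunit, by 0.83 and 1.47. CSE1, the receptor that returns importin α to the cytoplasm, fell by 1.50 and 1.12. KAP122, which imports a general transcription factor, fell by 1.64 in M2 and 0.94 in nsf1∆. The nsf1∆ arrays at 24 h were apart for KAP122, at 7.03 and 6.31, and without replicate 1 the change was -0.59 and did not pass (adjusted p = 0.0634, limma).

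LOS1 carries tRNA out of the nucleus. It read 7.85 and 7.95 in M2 at 24 h, then 6.36 and 6.50 at 20%, and 6.15, 6.04 and 6.23 at 85%. In nsf1∆ the values were 7.54 and 6.88, then 6.68 and 6.85, then 6.29, 6.30 and 6.33. In M2 the drop was nearly complete by 20%, and in nsf1∆ both 24 h arrays lay under both of M2. LOS1 fell by 1.76 in M2 (SE 0.16, adjusted p = 3.5e-07, limma) and by 0.91 in nsf1∆ (SE 0.16, adjusted p = 1.8e-04, limma), and the latter was 0.58 without nsf1∆ replicate 1 at 24 h. CRM1, the main exporter of proteins with leucine-rich signals, fell by 0.49 in M2 (adjusted p = 0.0496, limma), where M2 replicate 3 at 85% read 9.16 against 8.50 and 8.49 and the groups overlapped. That call was lost under 11 of the 14 omissions of 1 array. In nsf1∆ CRM1 fell by 0.99. MSN5, an exporter of phosphorylated proteins, changed by -0.06 in M2 (adjusted p = 0.719, limma) and fell by 0.52 in nsf1∆ (adjusted p = 0.00546, limma).

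**Figure D2:**
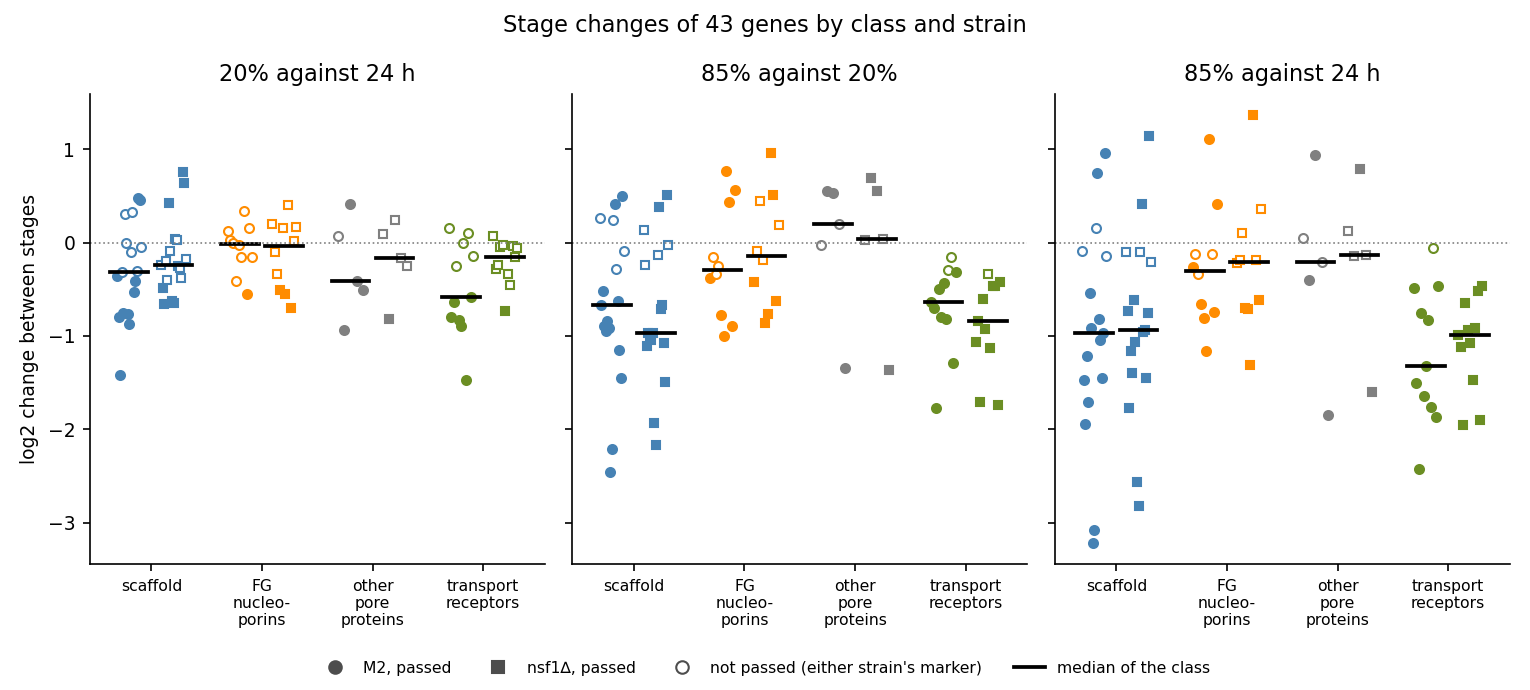
Each point is the log2 change of 1 gene in 1 strain, filled where it passed, for the early step (20% against 24 h), the late step (85% against 20%) and both together. Bars are class medians, which for 85% against 24 h were -0.97 and -0.94 for the scaffold, -0.30 and -0.20 for FG nucleoporins and -1.32 and -0.99 for transport receptors in M2 and nsf1∆.

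The early step, from 24 h to 20% of sugars fermented, already lowered part of the set in M2. There 18 of 43 genes fell and 3 rose, where 26.4% of all probe sets fell and 26.5% rose. Scaffold genes gave 8 falls of 17 and transport receptors 6 of 11, and NUP49 was the only 1 of the 10 FG nucleoporins to fall. LOS1 had the largest early fall, 1.47 (SE 0.18, adjusted p = 2.4e-05, limma), followed by NUP120 with 1.42 and GLE2 with 0.94. The 3 rises were those of POM33, POM34 and MLP1, at 0.48, 0.46 and 0.41.

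In nsf1∆ the early step gave 9 falls and 3 rises, where 18.3% of all probe sets fell and 19.9% rose. GLE2 fell most, by 0.82 (SE 0.15, adjusted p = 8.9e-04, limma), and POM33 rose most, by 0.75 (SE 0.19, adjusted p = 0.00784, limma). KAP123 was the only transport receptor to fall, by 0.73. With 2 arrays per group these counts were sensitive to single arrays. The falls numbered 11 in M2 without replicate 2 at 24 h or replicate 1 at 20%, and 5 in nsf1∆ without replicate 1 at 24 h or replicate 2 at 20%, and the rises numbered 1 in either strain without the same arrays. NUP120, NUP145, NUP188, NUP192, NIC96, NUP49, GLE2, KAP123, CSE1 and LOS1 were the 10 genes that passed in M2 under each omission of 1 array, and NUP192, NUP49, GLE2, KAP123 and POM34 the 5 in nsf1∆.

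In the late step, from 20% to 85%, 25 of 43 genes fell and 7 rose in M2, where 31.9% of all probe sets fell and 33.1% rose. In nsf1∆ 26 fell and 6 rose, against 33.9% and 31.6%. The largest late falls were that of NUP188 in M2, 2.45 (SE 0.14, adjusted p = 2.0e-08, limma), and that of NUP192 in nsf1∆, 2.17 (SE 0.12, adjusted p = 1.7e-08, limma). NUP42 had the largest late rise in both strains, 0.77 in M2 and 0.96 in nsf1∆. All 7 import receptors fell in M2 in this step and 6 of 7 in nsf1∆, where KAP123 changed by -0.34 and did not pass (adjusted p = 0.0649, limma). Under each omission of 1 array 23 of the 32 late calls in M2 held, and 28 of the 32 in nsf1∆. The calls lost in M2 were those of NUP120, NUP59, NUP60, MLP1, SRP1, KAP120, KAP122, KAP123 and CRM1. Those lost in nsf1∆ were of NUP59, SRP1, MSN5 and LOS1.

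A few genes turned between the steps, which share the 20% arrays. POM33 read 11.19 and 11.10 in M2 at 24 h, then 11.74 and 11.52 at 20%, and 10.10, 10.29 and 10.14 at 85%. In nsf1∆ it read 11.04 and 11.29, then 11.79 and 12.03, then 10.80, 10.30 and 10.15. The highest values were at 20% and the lowest at 85% in both strains, with a late fall of 1.45 in M2 and 1.49 in nsf1∆. The early rise in M2 (adjusted p = 0.0463, limma) was lost under 10 of the 14 omissions of 1 array. NUP157 also rose and then fell, in nsf1∆, by 0.42 and 1.04. Its values there were 8.46 and 8.36, then 8.80 and 8.86, then 7.64, 7.84 and 7.90, and its early rise (adjusted p = 0.0252, limma) was lost under 4 omissions, those of the nsf1∆ arrays at 24 h and 20%. In M2 its early change of 0.30 did not pass (adjusted p = 0.0768, limma).

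NUP49 and GLE2 had the opposite course. NUP49 read 9.65 and 9.56 in M2 at 24 h, then 9.03 and 9.07 at 20%, and 9.41, 9.54 and 9.51 at 85%, falling by 0.55 and then rising by 0.43. In nsf1∆ it fell by 0.70 and rose by 0.51. GLE2 read 9.78 and 9.42 in M2 at 24 h, then 8.50 and 8.80 at 20%, and 9.24, 9.18 and 9.18 at 85%. In nsf1∆ its values were 9.74 and 9.56, then 8.77 and 8.90, then 9.46, 9.55 and 9.54. For both genes and in both strains the 20% arrays were the lowest and lay apart from the other stages. SEH1, NUP53, NUP1, NUP100 and GLE1 were the 5 genes that passed in no stage comparison of either strain.

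**Figure D3:**
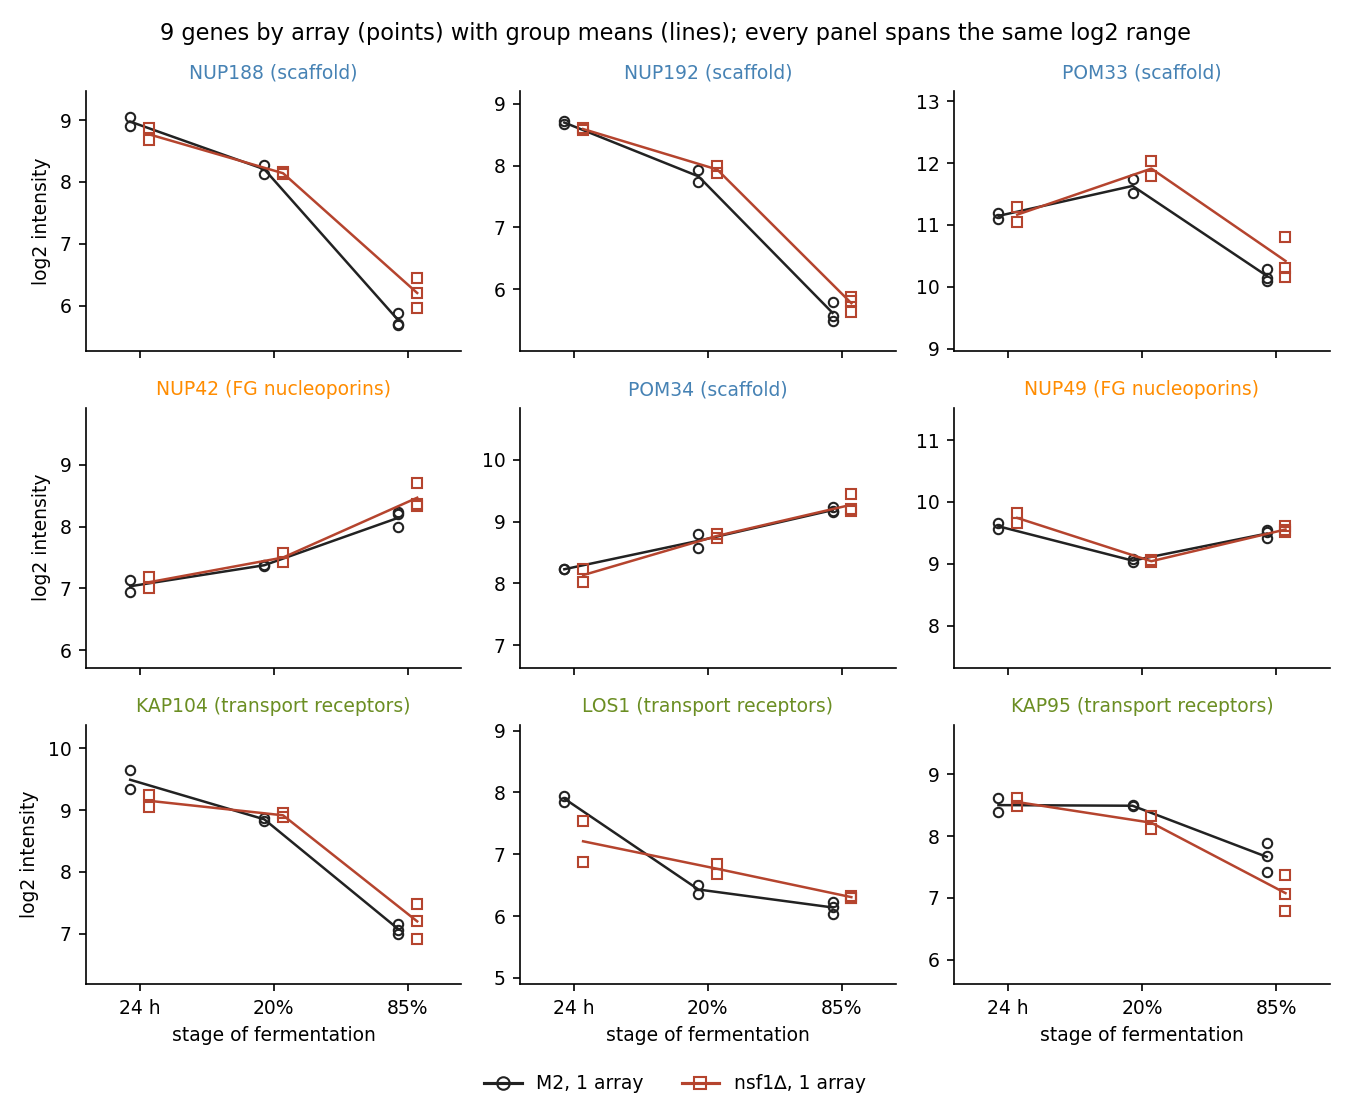
Points are the log2 intensities of single arrays and lines join the group means of M2 and nsf1∆ at 24 h, 20% and 85% for 9 genes, each panel spanning the same number of log2 units. NUP188, NUP192 and KAP104 fall mostly in the late step, LOS1 in M2 mostly in the early step, POM33 peaks at 20%, NUP49 dips there, and NUP42 and POM34 climb.

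Between the strains few of the 43 genes passed, at shares close to those of all probe sets. At neither 24 h nor 20% did any gene pass, where 0.127% and 0.346% of all probe sets passed, and the 95% intervals reached 0.23 to 0.61 to either side of the estimate. At an unadjusted p under 0.05 there were 2 genes at each of these stages, against 9.8% and 14.7% of all probe sets, which were LOS1 (-0.69, adjusted p = 0.167, limma) and NUP82 (-0.39, adjusted p = 0.445) at 24 h, and NUP120 (0.66, adjusted p = 0.147) and CSE1 (0.32, adjusted p = 0.322) at 20%. The LOS1 difference was -1.02 and passed without nsf1∆ replicate 1 at 24 h (adjusted p = 0.00521, limma) and was -0.36 without replicate 2 (adjusted p = 1). The strain comparisons assume that the arrays of both strains were normalized together, which was not stated in the sources used here.

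At 85%, 3 of the 43 genes passed, where 8.84% of all probe sets did. There were 2 higher in nsf1∆ and 1 lower, against 4.95% and 3.89% of all probe sets. NIC96 read 6.68, 6.61 and 6.98 in M2 and 7.25, 7.19 and 7.49 in nsf1∆, without overlap, and was 0.55 higher in nsf1∆ (SE 0.12, 95% interval 0.29 to 0.81, adjusted p = 0.0167, limma). NUP188, with the values given above, was 0.44 higher in nsf1∆ (95% interval 0.17 to 0.72, adjusted p = 0.0473, limma). KAP95 read 7.68, 7.42 and 7.89 in M2 and 7.07, 6.79 and 7.37 in nsf1∆, again without overlap, and was lower by 0.59 in nsf1∆ (log2 difference -0.59, 95% interval -0.92 to -0.26, adjusted p = 0.0343, limma).

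Each of these 3 calls was lost under some omissions of 1 array, 2 of 14 for NIC96 and 4 of 14 for KAP95. Without M2 replicate 1 at 85% none of the 43 genes passed, and NIC96 had a difference of 0.51 (adjusted p = 0.059, limma). NIC96 was also lost without M2 replicate 2 at 85% (0.48, adjusted p = 0.0596), and KAP95 without M2 replicate 3 (-0.47, adjusted p = 0.107) or nsf1∆ replicate 1 or 2 at 85% (-0.59 and -0.45, adjusted p = 0.0733 and 0.118). NUP188 was lost under 11 of the 14 omissions. Counting the main fit and the alternatives with adjusted p, it passed in 4 of 22 settings, against 18 of 22 for NIC96 and 16 of 23 for KAP95. Most of these settings are the 14 omissions, which include arrays outside the 85% stage. The requirement of a 2-fold change is not among them, and none of the 3 genes met it. Without nsf1∆ replicate 3, the array with NSF1 at 5.90, NIC96 and KAP95 still passed (0.46 and -0.73, adjusted p = 0.0467 and 0.0208, limma), NUP188 did not (0.45, adjusted p = 0.0862) and CRM1 did (-0.67, adjusted p = 0.0454).

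At an unadjusted p under 0.05 there were 9 genes at 85%, against 25.8% of all probe sets. Besides the 3 above, NUP100, NUP42 and GLE2 read higher in nsf1∆ (0.64, 0.32 and 0.32) and PSE1, CRM1 and MSN5 lower (-0.30, -0.47 and -0.35), with adjusted p from 0.101 to 0.152 by limma. The NUP100 difference was 0.35 without nsf1∆ replicate 1.

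**Figure D4:**
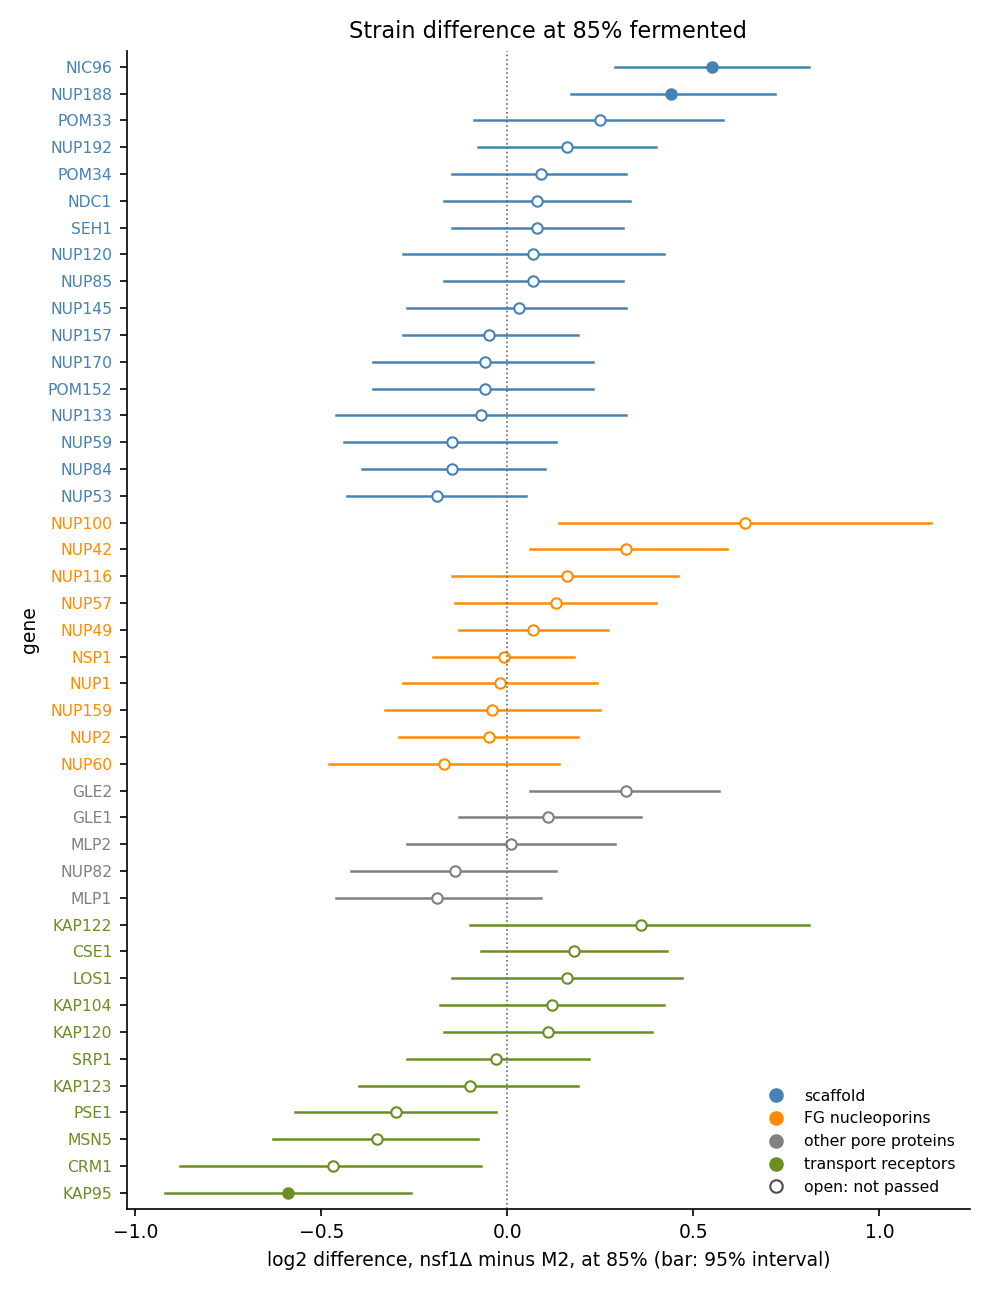
Points are the log2 differences of nsf1∆ from M2 at 85% for the 43 genes, with 95% intervals as bars, grouped by class and filled where they passed. NIC96 (0.55) and NUP188 (0.44) lie above 0 and KAP95 (-0.59) below, and most other intervals cover 0.

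Whether the stage change itself differed between the strains was tested as an interaction. None of the 43 genes passed for the early step, the late step or both together, where 1.6%, 0.2% and 2% of all probe sets passed, and 4, 5 and 5 genes had an unadjusted p under 0.05, against 15.5%, 13.9% and 17.3% of all probe sets. So the 12 genes that passed early in M2 alone, 5 of them transport receptors, were not shown to differ from nsf1∆. LOS1 had the lowest adjusted p for the early step, with a fall that was smaller in nsf1∆ by 1.03 (SE 0.25, adjusted p = 0.0599, limma). Its adjusted p was 0.00342 without nsf1∆ replicate 1 at 24 h and 0.2 without replicate 2, the 2 arrays at 7.54 and 6.88. For 85% and 24 h, the fall of LOS1 was smaller in nsf1∆ by 0.86 (adjusted p = 0.0795, limma), and this passed without nsf1∆ replicate 1 at 24 h (1.19, adjusted p = 0.00646) but not without replicate 2 (0.52, adjusted p = 0.26). NIC96 had the lowest adjusted p of the 43 genes there, with a fall smaller in nsf1∆ by 0.74 (adjusted p = 0.0706, limma). It passed without M2 replicate 3 at 85% (0.85, adjusted p = 0.0451), with arrays shifted to one median (0.75, adjusted p = 0.0486) and with the replicate number as a block (0.74, adjusted p = 0.0314).

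Genes that work with the pore were counted from lists as well, between 24 h and 85%, where 35.2% of all probe sets fell and 38% rose in M2 and 36% fell and 37% rose in nsf1∆. Of 4 further karyopherins, all fell in M2 and 3 in nsf1∆. KAP114, which imports histones and TBP, fell by 1.79 and 1.38, and NMD5 by 1.40 and 0.97. MTR10, the importer of Npl3, fell by 0.49 in M2 and changed by 0.09 in nsf1∆ (adjusted p = 0.678, limma). The M2 call was lost without either 24 h array, and without M2 replicate 2 at 85%, which read 7.74 against 8.46 and 8.59, the change was -0.23 (adjusted p = 0.102). In the Ran cycle 7 of 9 genes fell and 1 rose in M2, and 6 fell and 1 rose in nsf1∆. The calls of YRB2 and YRB30 in M2 and of YRB1 and GSP2 in nsf1∆ were lost under at least 1 omission of 1 array. NTF2, the importer of Ran, fell by 1.56 and 1.38, RNA1, its GTPase-activating protein, by 1.32 and 1.07, and MOG1, a Ran-binding protein, rose by 0.76 and 0.43. GSP1 and GSP2 encode nearly identical Ran proteins, so their probe sets may read both.

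Of 12 mRNA export genes, 4 rose and 4 fell in M2, and 4 rose and 5 fell in nsf1∆, shares close to those of all probe sets (38% and 35.2%, 37% and 36%). The calls of THP1 and MTR2 in M2 and of DBP5 in nsf1∆ were lost under at least 1 omission of 1 array. GFD1, a factor that binds Gle1, rose by 1.84 in M2 and 2.04 in nsf1∆, and NAB2, a poly(A)-binding protein and cargo of Kap104, by 1.34 in each. SUB2, a helicase of the transcription and export complex, fell by 1.50 and 1.24, and SAC3, the core of a complex at the basket, by 1.07 and 0.87. Of 9 genes for pore assembly or proteins linked to the pore, 4 rose and 3 fell in M2, and 4 rose and 4 fell in nsf1∆, again near the shares of all probe sets. Here the falls of NVJ1 in both strains and of HEH2 in nsf1∆ were lost under at least 1 omission of 1 array. HEH1 (SRC1), a protein of the inner nuclear membrane, rose by 2.70 and 3.34, and BRL1, a membrane protein needed to build pores, by 1.70 and 1.65. SEC13, which serves both the outer ring and COPII vesicles, fell by 1.06 and 1.00, and ESC1, which tethers silent chromatin to the nuclear edge, by 0.38 and 0.52. The ESC1 call in M2 was lost under 7 of the 14 omissions, with -0.16 (adjusted p = 0.45, limma) without M2 replicate 2 at 24 h and -0.60 without replicate 1. In nsf1∆ it was lost without replicate 2 at 24 h (-0.42, adjusted p = 0.0803).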

How the data were processed

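RNA of M2 and M2 nsf1∆ from 14 fermentation samples was hybridised to Affymetrix Yeast Genome 2.0 arrays. The authors made log2 intensities with RMA (background correction, quantile normalization, summary of each probe set) and deposited them as one table; the version, the genome build and whether both strains were normalized together were not given in the sources used here. RMA compresses changes of dim probe sets. Of 10928 probe sets, tests covered the 5498 annotated to a single S. cerevisiae gene, and 1746 of S. pombe, 213 controls, 3470 with no gene name and 1 of several genes were left out. Gene names came from the platform annotation and, for synonyms, RefSeq assembly R64.

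Strain and stage as labelled gave 6 groups, whose means limma 3.58.1 (R 4.3.3) fitted over all 14 arrays at once, leaving 8 residual degrees of freedom to which 5.14 prior ones were added. Within each contrast p-values were adjusted by Benjamini-Hochberg over 5498 probe sets and called at 0.05. Stages are percentages of glucose in the labels and of sugars in the study's text. The number of arrays limits the precision. The fit was first run on simulated data for M2 at 85% against 24 h only. It recovered 21 of 50 changes of 0.5 log2 and 47 of 50 changes of 1 log2, with 10 false calls. The simulated noise was independent between arrays, and far fewer probe sets changed than were called in the real comparison. Strain differences and interactions were not simulated. Tables were joined and figures drawn with Python 3.11.15, pandas 2.3.3 and matplotlib 3.10.9.

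The 43 genes, the lists and the tests were chosen with earlier results of these data known. All 43 are named. Values by array are given for the largest rise and fall of each class, the largest early and late changes, genes that passed between the strains and the 6 genes the study had named. From other lists up to 2 genes each way were named by their M2 change. MTR10, GSP1, GSP2, YRB1, YRB2, YRB30, THP1, MTR2, DBP5, NVJ1, HEH2 and the marker genes were named after their values were seen. Alternatives tried were a block for the replicate number, leaving out the dimmest 25% of probe sets, keeping every probe set, a further quantile normalization, arrays shifted to one median, an intensity trend, the arrays of a contrast alone, each array left out, the methods' t-test for the strains at 85% and a fold change of at least 2. Promoter motifs and FG repeats were not analysed here.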

Additional observations from a re-analysis of the deposited data

How the results depend on the processing

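No stage or strain value of the 43 genes that passed turned its direction under any alternative. With a fold change of at least 2 required as well, the counts were: 24 h to 20%, 0 rose and 2 fell in M2, 0 and 0 in nsf1∆; 20% to 85%, 0 and 7 in M2, 0 and 12 in nsf1∆; 24 h to 85%, 1 and 16 in M2, 2 and 14 in nsf1∆; nsf1∆ against M2 at 85%, 0. Leaving out dim probe sets kept 31 of the genes, and none of these lost a call. Among them 11 fell early in M2, 5 fell early in nsf1∆ and 1, KAP95, differed between the strains at 85%. These counts are lower because genes were left out, NIC96 and NUP188 among them. With all probe sets of the table, 1 rose early in M2 and 1 differed between the strains at 85%. With the arrays of the contrast alone, or the methods' t-test after adjustment, 0 differed at 85%, and 2 by that t-test unadjusted. With arrays shifted to one median 1 gene, NIC96, passed the interaction of 85% and 24 h. The causes of the other changes in count were not tested.

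Leaving out 1 array at a time gave, for rises and falls, 1 to 3 and 11 to 18 early, 5 to 7 and 20 to 26 late and 4 to 5 and 26 to 29 from 24 h to 85% in M2, and 1 to 4 and 5 to 10, 5 to 6 and 24 to 27, and 3 to 5 and 27 to 28 in nsf1∆. Between the strains it gave 0 to 1 at 24 h (LOS1), 0 to 0 at 20% and 0 to 3 at 85%, and for the interactions 0 to 1 early, 0 to 0 late and 0 to 1 overall. The class medians of the early step, the late step and 24 h to 85% were, in that order, -0.36 to -0.30, -0.79 to -0.63 and -1.04 to -0.92 for the scaffold in M2, -0.15 to 0.08, -0.41 to -0.14 and -0.43 to -0.20 for FG nucleoporins in M2, and -0.67 to -0.43, -0.69 to -0.53 and -1.46 to -1.19 for receptors in M2. In nsf1∆ they were -0.25 to -0.23, -0.97 to -0.83 and -0.97 to -0.84, then -0.13 to 0.03, -0.21 to -0.06 and -0.27 to -0.19, then -0.34 to -0.08, -0.90 to -0.76 and -1.22 to -0.90.

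Replicate numbers did not pair the arrays throughout: over 31 pairs with the same number, r of the deviations ran from -0.51 to 0.57, with 9 over 0.1. Where both groups hold 2 arrays the deviations mirror each other and r repeats, so the 31 pairs are not separate. Between M2 and nsf1∆ at 85%, r was 0.027, 0.235 and 0.574 for replicates 1, 2 and 3. What arrays of the same number share was not tested. With the replicate block NIC96, 1 gene, passed the interaction of 85% and 24 h, 3 genes differed between the strains at 85% (CRM1 in place of NUP188), and the FG median of the late step in nsf1∆ was -0.23 instead of -0.14. A crossed pairing of the arrays at 24 h and 20%, chosen after seeing the data, left the strain counts at 0.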

Other observations

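Genes of this set that fell more tended to be longer. Over the 43 genes, Pearson's r between log2 gene length in RefSeq assembly R64 and the log2 change from 24 h to 85% was -0.46 in M2 and -0.49 in nsf1∆, and Spearman's rho -0.42 and -0.45. Over all 5498 probe sets r was -0.12 in each strain. Median lengths were 3246 bp for the transport receptors, 2520 bp for the scaffold and 2376 bp for the FG nucleoporins. These are descriptions across genes of the same arrays, and genes are not independent replicates. The part of length in the class differences was not tested.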
